A study of Homo sapiens with 2 samples.

Results

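Open chromatin near 10 marker genes of liver cancer and of stem-like liver cells was described in HepG2 cells, an established human hepatocellular tumour line, with and without depletion of the orphan nuclear receptor NR2E3. The genes were AFP, GPC3, EPCAM, PROM1, CD44, CD24, SOX9, KRT19, EGFR and TERT. Their peaks were all entries of the 3 deposited FAIRE-seq lists whose nearest gene, as the authors annotated it, was a gene of this set. This gave 29 of 56159 peaks, for 8 of the 10 genes. CD44 and TERT were named for no peak in any list.

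FAIRE (formaldehyde-assisted isolation of regulatory elements) enriches DNA that is not bound in crosslinked protein, so that a peak marks accessible chromatin. HepG2 cells had received lentiviral particles with either a scrambled small hairpin RNA (labelled control) or a small hairpin RNA against NR2E3 (labelled NR2E3 depleted), and each group had 1 library. Both were grown and crosslinked alike, and the NR2E3-depleted cells carried 1 of the hairpins used in the study. The lists hold peaks common to both libraries (14368), control-specific peaks (16236) and NR2E3-depleted-specific peaks (25555, called depleted-specific here). With 1 library per group, no difference between the conditions has a replicate check and no test was made. The lists do not measure the NR2E3 transcript, and the number of tags at a specific peak in the library that lacked it was not analysed here.

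The genes serve different roles. AFP is a fetal serum protein and GPC3 a cell-surface heparan sulphate proteoglycan, and both are silenced in adult liver and made again by many liver cancers. EPCAM, PROM1, CD44 and CD24 are surface proteins by which stem-like liver cancer cells are sorted. SOX9, a transcription factor, and KRT19, a keratin filament, mark bile duct and progenitor cells. EGFR is a growth factor receptor kinase, and TERT is the catalytic subunit of telomerase. Regulation of such genes often rests on enhancers, which can lie far from the start site.

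The cell type label was checked against marker genes. Of 15 hepatocyte genes, 10 were named for a promoter peak, including APOA1, APOB, SERPINA1, HNF4A and FOXA2, while ALB, TTR, FGB, FOXA3 and CEBPA were not. None of 5 blood, 4 muscle and 3 fibroblast marker genes had one, and the share was 28.0% over all protein-coding genes. Peaks of any class were listed for 14 hepatocyte, 3 blood, 1 muscle and 2 fibroblast genes, against 51.4% of protein-coding genes. Depths inferred from the score steps were 24.6 M tags (control) and 19.7 M tags (NR2E3-depleted), if scores are scaled to 10 M tags, which is not given in the sources used here.

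Peaks near the marker genes were found in all 3 lists. Of the 29 peaks, 4 were common, 10 were control-specific and 15 were depleted-specific. Depleted-specific peaks made up 60% of the 25 specific peaks (exact Clopper-Pearson 95% interval 38.7% to 78.9%, counting error only). The share was 61.1% over all 41791 specific peaks. It was 68.8% when the specific peaks of each chromosome were weighted as the marker gene peaks were spread. Both of these shares lay inside the interval of the marker gene peaks. Without SOX9, which held 11 of the 29 peaks, the share was 62.5% (35.4% to 84.8%).

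**Figure D1:**
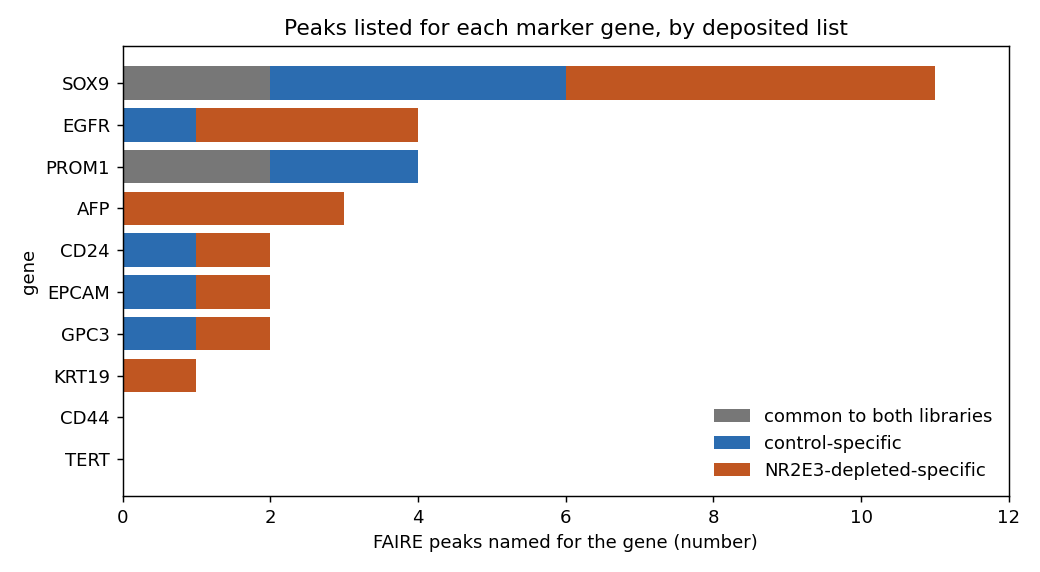
Number of FAIRE peaks (horizontal axis) whose nearest gene was each of the 10 marker genes (vertical axis), stacked by deposited list. SOX9 had 11 peaks, PROM1 had none in the depleted-specific list, AFP and KRT19 had depleted-specific peaks alone, and CD44 and TERT had no peak.

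By gene, 2 of the 10 were named for a common peak (PROM1 and SOX9), against 26.7% of 20052 protein-coding genes. A control-specific peak was listed for 6 genes (GPC3, EPCAM, PROM1, CD24, SOX9 and EGFR), against 21.0% of protein-coding genes. A depleted-specific peak was listed for 7 genes (AFP, GPC3, EPCAM, CD24, SOX9, KRT19 and EGFR), against 36.1%. Counting any list, 8 of 10 genes had a peak, against 51.4%. Both kinds of specific peak were listed for 5 genes, against 14.5%. AFP and KRT19 had depleted-specific peaks alone, a state held by 15.3% of protein-coding genes, and no gene of the set had control-specific peaks alone, a state held by 4.20%. The nearest-gene rule gives more peaks to a gene with wide flanks, and the background was not matched for this.

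No gene of the set was named for a promoter peak. The count was 0 of 10 in each list, where 14.5% (common), 3.64% (control-specific), 11.7% (depleted-specific) and 28.0% (any list) of protein-coding genes had a promoter peak. It rests on the gene name given and does not show closed promoters. Common promoter peaks at SOX9 and at an upstream EPCAM start were named for SOX9-AS1 and EPCAM-DT, as described below. The deposited annotation classed 23 of the 29 peaks as intergenic and 4 as intronic. A single peak lay in a 3′ UTR and another at a transcription end site, both at SOX9. More than 20 kb from the start site lay 21 peaks (72.4%), compared with 58.8% of all 48976 peaks outside promoters.

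**Figure D2:**
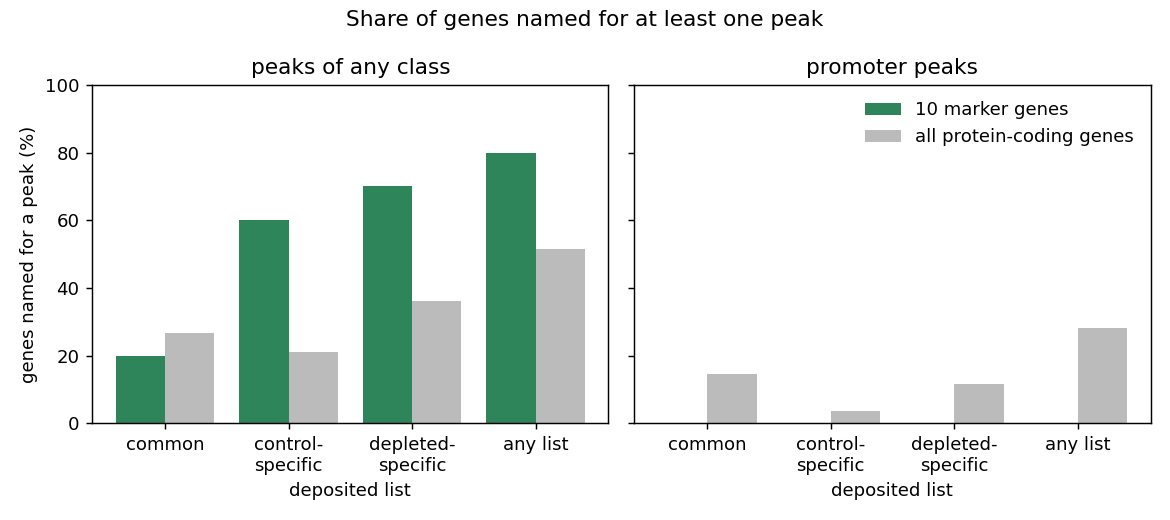
Percentage of genes (vertical axis) named for at least 1 peak of any class (left) or of the promoter class (right) in each deposited list (horizontal axis), for the 10 marker genes and for all 20052 protein-coding genes. Counted by the name given, marker genes reach 80% for any peak but 0% for promoter peaks. Common promoter peaks at SOX9 and at an upstream EPCAM start carry the names of neighbouring transcripts.

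The specific peaks were of ordinary height, and the median of the 4 common peaks was above that of their list. The score is the authors' scaled number of tags in a peak. It ran from 6.10 to 9.76 in the 4 common peaks, from 4.88 to 6.10 in the control-specific peaks and from 5.58 to 8.11 in the depleted-specific peaks. In tags these ranges were 15 to 24, 12 to 15 and 11 to 16. The medians of the marker gene peaks were 21, 14 and 13 tags, and those of the whole lists were 16, 14 and 12 tags. The Poisson 95% interval of every specific marker gene peak overlapped that of every other, as 11 tags allow 5.49 to 19.7 and 16 tags allow 9.15 to 26.0. These peaks lie at different places, so the overlap does not compare the libraries at any given peak. No marker gene peak had a score of 10 or more. Scores were under 10 in most peaks of the whole lists, 13063 of 14368 common, 16191 of 16236 control-specific and 24873 of 25555 depleted-specific.

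**Figure D3:**
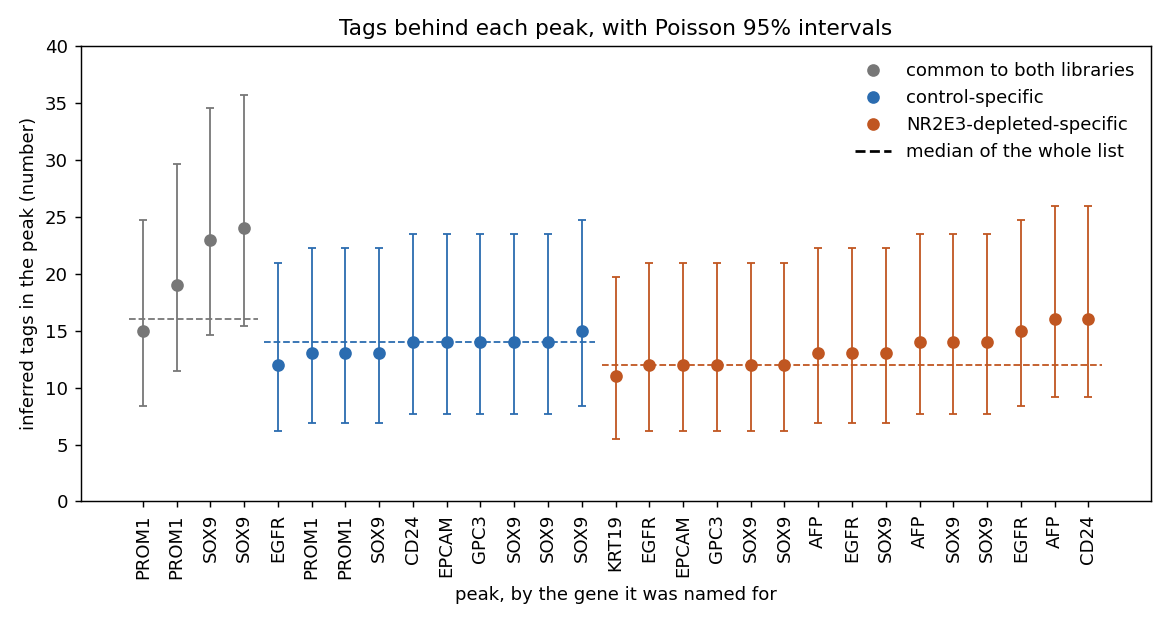
Inferred number of tags (vertical axis) in each of the 29 peaks (horizontal axis, by gene), coloured by list, with Poisson 95% intervals as bars and the median of each whole list as a dashed line. The specific peaks held 11 to 16 tags with overlapping intervals, and the highest values, 23 and 24 tags, were common peaks of SOX9.

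**Figure D4:**
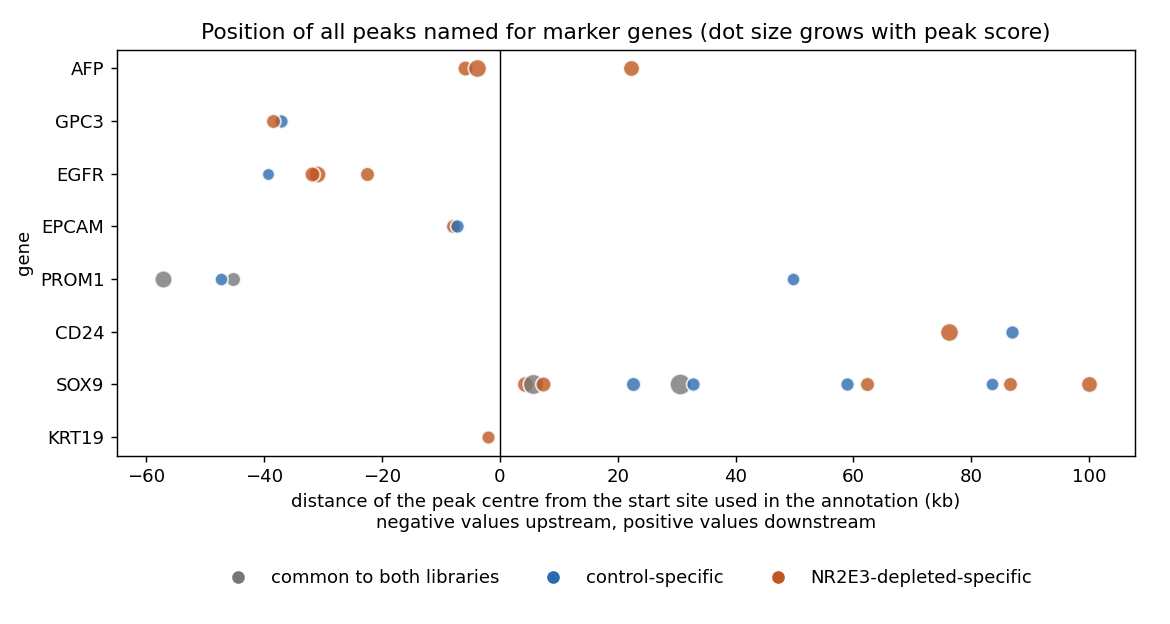
Distance in kb (horizontal axis) of each of the 29 peak centres from the start site used in the annotation, by gene (vertical axis) and list (colour), with dot size growing with score. Peaks of SOX9 and CD24 lay downstream of the start, those of GPC3, EPCAM, EGFR and KRT19 upstream, and none lay within 2 kb. Peaks upstream of SOX9 were named for neighbouring transcripts and are not drawn.

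The serum markers came first. AFP lies on the plus strand of chromosome 4 from 73431138 to 73456174 (hg38, GENCODE release 44), next to its relative ALB, the albumin gene. It was named for 3 peaks, all depleted-specific. The first, at 73430103 to 73430403, lay 5968 bp upstream of the RefSeq start site and had a score of 6.59 (13 tags). The second, at 73432254 to 73432554, lay 3817 bp upstream of the same start with a score of 8.11 (16 tags), above 86.6% of its list. The third, at 73458275 to 73458575, lay 22204 bp downstream of the start, past the end of the gene, with a score of 7.10 (14 tags). Upstream enhancers within several kilobases of the start are known to drive AFP in fetal liver and liver cancer cells. GENCODE also lists AFP transcripts with an earlier start, and the first peak had its centre 885 bp before the nearest of these. The second peak lay inside the GENCODE span of AFP, 1245 bp past the nearest such start.

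The AFP peak nearest to the RefSeq start, also the one with the highest score at this gene, is shown. Like the other AFP peaks, it was listed in the NR2E3-depleted library alone. Capitals mark the only match to the motifs searched, a C/EBP motif (TTGCNNAA, either strand), which binds a family of liver transcription factors. The plus strand of chr4:73432255-73432554 is shown.
AFP peak nearest to the RefSeq start: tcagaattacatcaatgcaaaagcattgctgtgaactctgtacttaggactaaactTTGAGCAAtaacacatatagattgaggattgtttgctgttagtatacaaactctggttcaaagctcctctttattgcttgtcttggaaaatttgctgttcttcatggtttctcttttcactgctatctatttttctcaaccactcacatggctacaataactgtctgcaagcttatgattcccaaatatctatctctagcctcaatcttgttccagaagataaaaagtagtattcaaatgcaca

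The neighbouring ALB was named for 6 depleted-specific peaks and 1 control-specific peak, and for no promoter peak. Together ALB and AFP had 9 depleted-specific, 1 control-specific and 0 common peaks. The depleted share was 90% (55.5% to 99.7%), and that of all specific peaks of chromosome 4 was 75.8%, within this interval. The pair was chosen after its values were seen. The control-specific peak lay 58751 bp upstream of ALB with a score of 5.29, between depleted-specific peaks 62718 and 55930 bp upstream. The nearest control-specific peak of any name downstream of AFP had its centre 43417 bp from the third AFP peak.

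GPC3 spans 133535745 to 133987100 of chromosome X (minus strand). It was named for a control-specific peak 37232 bp upstream of the start (134022728 to 134023028, score 5.69, 14 tags) and a depleted-specific peak 38441 bp upstream (score 6.08, 12 tags). The centres of these peaks were 1209 bp apart. The nearest common peak on the chromosome was 32614774 bp away from the control-specific peak. Few genes of this chromosome had any peak, 9.79% of 848 protein-coding genes. GPC3 itself, a gene of 451356 bp, held no peak within its span.

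The control-specific peak of GPC3 is shown as the GPC3 peak nearest to the start. Capitals mark matches of TTGCNNAA (C/EBP) on either strand. The sequence is the plus strand of chrX:134022729-134023028.
GPC3 control-specific peak: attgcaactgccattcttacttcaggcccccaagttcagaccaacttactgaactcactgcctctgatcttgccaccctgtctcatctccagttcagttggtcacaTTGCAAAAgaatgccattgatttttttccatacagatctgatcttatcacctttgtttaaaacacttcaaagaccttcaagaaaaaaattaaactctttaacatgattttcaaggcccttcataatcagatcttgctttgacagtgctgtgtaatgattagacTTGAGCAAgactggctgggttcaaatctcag
The sequence held 2 C/EBP matches and no match of the other motifs searched.

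Among the surface markers, EPCAM, an epithelial adhesion protein, lies on the plus strand of chromosome 2 from 47345158 to 47387601. It too had a pair of neighbouring peaks, a depleted-specific peak 7964 bp upstream of the annotated start (47361034 to 47361334, score 6.08, 12 tags) and a control-specific peak 7310 bp upstream (score 5.69, 14 tags). Their centres were 654 bp apart, the closest pair among the peaks named for genes of the set. Peaks were frequent on this chromosome, where 79.3% of 1254 protein-coding genes had a peak.

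The depleted-specific peak of EPCAM is shown because a control-specific peak lay so close to it. The only match, in capitals, was TGANTCA (AP-1, the binding site of Jun and Fos factors). The sequence is the plus strand of chr2:47361035-47361334.
EPCAM depleted-specific peak: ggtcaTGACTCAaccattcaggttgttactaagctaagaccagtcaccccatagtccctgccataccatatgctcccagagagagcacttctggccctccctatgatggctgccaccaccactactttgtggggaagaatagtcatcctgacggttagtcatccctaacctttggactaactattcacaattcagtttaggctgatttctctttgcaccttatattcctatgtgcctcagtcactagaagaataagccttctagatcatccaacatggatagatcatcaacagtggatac

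The 4 specific peaks of EPCAM and GPC3 were the only peaks of the set within 1500 bp of a specific peak of the other library. Of all control-specific peaks, 20.8% lay that close to a depleted-specific peak, and 13.3% the other way. They were 2 of 10 control-specific and 2 of 15 depleted-specific marker gene peaks, near those backgrounds.

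Gene naming hid further EPCAM peaks. GENCODE lists EPCAM transcripts that start upstream of the RefSeq start, and EPCAM-DT, a divergent noncoding transcript, starts beside them. A common peak at 47344982 to 47345282 had its centre 26 bp from such an EPCAM start, but was named for EPCAM-DT and classed as its promoter. Its score of 10.6 (26 tags) was higher than that of any peak named for a marker gene. A control-specific peak at 47344162 to 47344462 (score 5.69) and depleted-specific peaks at 47346125 to 47346425 (score 5.07) and 47354413 to 47354713 (score 7.10) were also named for EPCAM-DT. So were a common peak at 47343072 to 47343372 (score 6.91) and a control-specific peak at 47341530 to 47341830 (score 4.88), which gave EPCAM-DT 2 peaks in each list. This upstream start was thus listed as open in both libraries. The listed peak nearest to the RefSeq start of EPCAM was 7473 bp away.

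**Figure D5:**
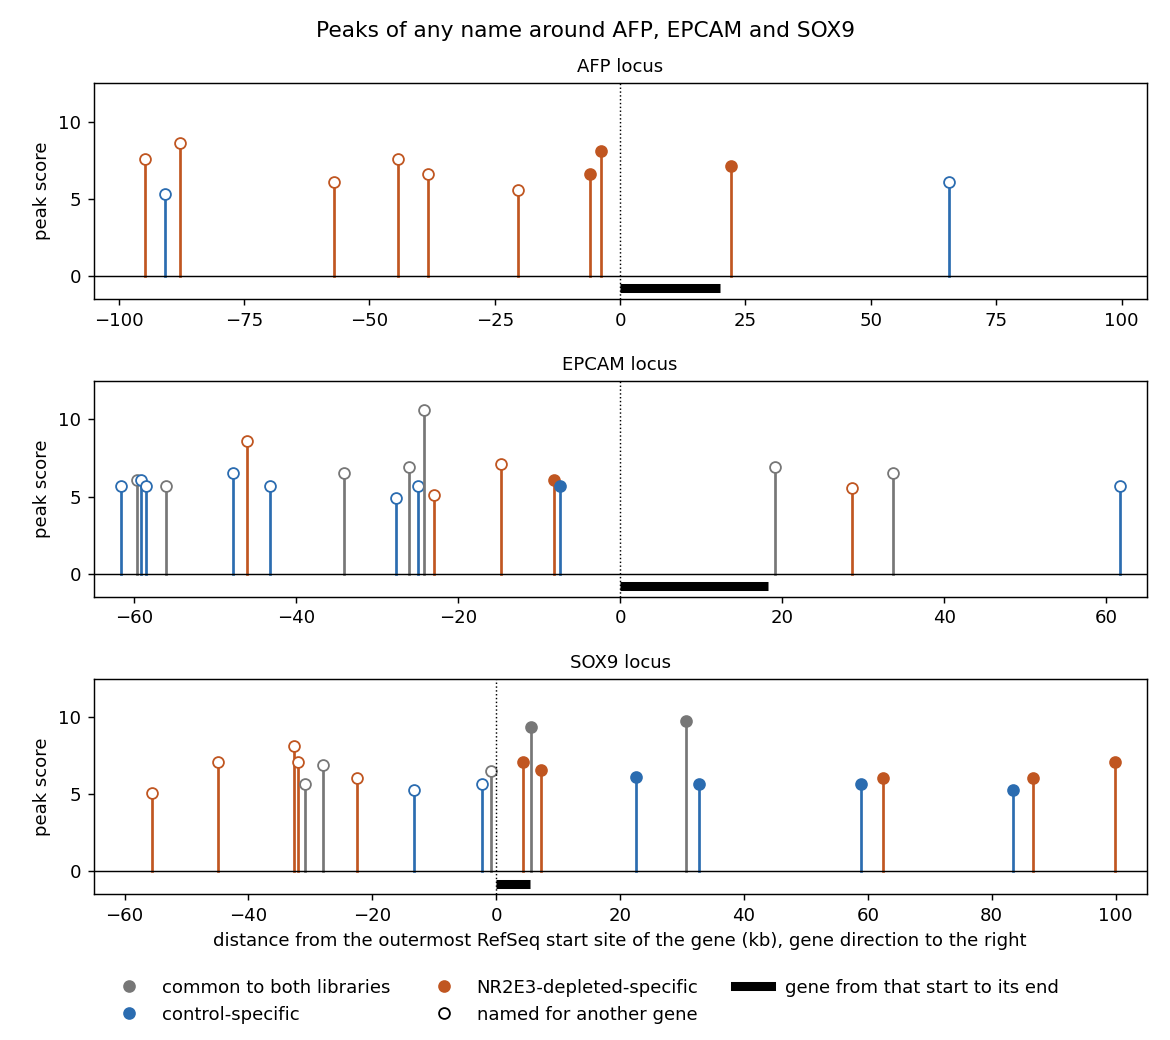
Peak score (vertical axes) against distance in kb from the outermost RefSeq start (horizontal axes) for all listed peaks around AFP, EPCAM and SOX9. Colours give the list, open circles mark peaks named for other genes, and black bars mark the gene from that start to its end. Depleted-specific peaks flank AFP, the common EPCAM-DT peak at -24.2 kb has a score of 10.6, and SOX9 peaks of all 3 lists extend to 99.9 kb.

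PROM1, a membrane protein with several transmembrane passes, spans 15963076 to 16084378 of chromosome 4 (minus strand). It was the only gene of the set that was named for peaks but for none in the depleted-specific list. Common peaks lay 45274 bp upstream (16129147 to 16129447, score 6.10, 15 tags) and 57136 bp upstream (16141009 to 16141309, score 7.73, 19 tags). A control-specific peak lay 47373 bp upstream (16131246 to 16131546) and another in intron 4 of 24 (16026213 to 16026513), each with a score of 5.29 (13 tags). The upstream control-specific peak was 2099 bp from a common peak, and both control-specific peaks had low scores, as 6.87% of their list lay below. A further control-specific peak inside PROM1, in intron 12 of 24 (score 5.69), was named for FGFBP2. So was a depleted-specific peak within 10 kb of the end of PROM1 (15956306 to 15956606, score 7.10, 14 tags). Counted by the gene span extended by 10 kb, 2 peaks of PROM1 were control-specific, 1 was depleted-specific and 0 were common.

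CD24, a small glycosylated surface protein, spans 106969831 to 106975627 of chromosome 6 (minus strand). Its peaks were distant from the gene. A depleted-specific peak lay 76299 bp downstream of the annotated start (106897590 to 106897890, score 8.11, 16 tags) and a control-specific peak 86913 bp downstream (106886976 to 106887276, score 5.69, 14 tags). Their centres were 10614 bp apart. On chromosome 6, 69.4% of protein-coding genes had a peak. The depleted-specific peak is shown as the CD24 peak nearest to the start. It held 2 matches of TGTTTAC (FOXA, the forkhead factors that open liver chromatin), and no other peak of the set held more than 1 (plus strand of chr6:106897591-106897890, matches in capitals).
CD24 depleted-specific peak: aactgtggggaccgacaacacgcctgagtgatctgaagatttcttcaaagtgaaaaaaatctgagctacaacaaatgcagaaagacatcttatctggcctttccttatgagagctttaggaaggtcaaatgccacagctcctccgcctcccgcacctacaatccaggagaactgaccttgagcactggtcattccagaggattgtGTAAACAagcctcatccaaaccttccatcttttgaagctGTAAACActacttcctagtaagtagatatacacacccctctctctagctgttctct

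CD44, the hyaluronan receptor on chromosome 11 from 35138882 to 35232402, was named for no peak. The listed peak nearest to any of its GENCODE starts was 102.9 kb away, a depleted-specific peak named for SLC1A2 with a score of 5.58. On chromosome 11, 39.3% of protein-coding genes had a peak. This shows only that no called peak had CD44 as its nearest gene at this depth.

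SOX9 lies on the plus strand of chromosome 17 from 72121020 to 72126416, a chromosome on which 61.3% of protein-coding genes had a peak. It had the most peaks of the set, with 2 common, 4 control-specific and 5 depleted-specific peaks. Of all protein-coding genes, 3.26% had 11 peaks or more. SOX9 lies next to a wide region without other genes, in which enhancers of this gene are known.

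All 11 peaks lay downstream of the start, from 4294 to 99939 bp. This side follows from the naming, as the upstream peaks described below were named for SOX9-AS1 or LINC02097. The common peaks were the highest of the whole set, with scores of 9.35 (23 tags) at 5649 bp, just past the end of the gene (72126519 to 72126819), and 9.76 (24 tags) at 30568 bp (72151438 to 72151738). Depleted-specific peaks flanked the first of these, at 4294 bp in the 3′ UTR (score 7.10, 14 tags) and at 7269 bp (score 6.59, 13 tags). The control-specific peak at 32802 bp (score 5.69, 14 tags) was 2234 bp from the second. Farther out, specific peaks of both libraries were listed. A control-specific peak at 58961 bp (score 5.69) was followed 3433 bp later by a depleted-specific peak at 62394 bp (score 6.08). A control-specific peak at 83484 bp (score 5.29) was followed 3099 bp later by a depleted-specific peak at 86583 bp (score 6.08). The remaining peaks were control-specific at 22531 bp (score 6.10) and depleted-specific at 99939 bp (score 7.10).

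The SOX9 promoter was also listed as open in both libraries, under another name. A common peak at 72119961 to 72120261 had its centre 909 bp upstream of the SOX9 start and was classed by the authors as the promoter of the SOX9 transcript, but its nearest start site was that of the antisense gene SOX9-AS1. Its score was 6.51 (16 tags). SOX9-AS1 was also named for control-specific peaks 2233 bp (score 5.69) and 13257 bp (score 5.29) upstream of the SOX9 start and for a depleted-specific peak 22420 bp upstream (score 6.08). Farther upstream, the noncoding gene LINC02097 was named for 2 common and 4 depleted-specific peaks.

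The promoter peak and the common peak past the gene end are shown as the SOX9 sites of both libraries nearest to the gene. The sequences are the plus strand of chr17:72119962-72120261 and chr17:72126520-72126819. Capitals mark CCAAT (NFY), AAGTCA (the half-site bound by NR2E3) and TTGCNNAA (C/EBP) matches on either strand.
SOX9 promoter peak: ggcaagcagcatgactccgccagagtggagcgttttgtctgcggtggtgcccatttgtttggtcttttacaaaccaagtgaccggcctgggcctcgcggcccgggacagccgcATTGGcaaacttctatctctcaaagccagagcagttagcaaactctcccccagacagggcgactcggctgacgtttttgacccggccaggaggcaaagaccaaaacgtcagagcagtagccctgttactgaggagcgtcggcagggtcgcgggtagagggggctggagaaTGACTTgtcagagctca
SOX9 peak past the gene end: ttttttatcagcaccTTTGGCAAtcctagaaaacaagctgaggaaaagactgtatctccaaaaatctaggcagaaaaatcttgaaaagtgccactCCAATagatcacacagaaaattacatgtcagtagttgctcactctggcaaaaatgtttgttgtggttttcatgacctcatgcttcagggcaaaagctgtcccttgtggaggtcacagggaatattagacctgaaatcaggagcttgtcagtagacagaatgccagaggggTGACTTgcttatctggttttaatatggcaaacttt
The promoter peak had a GC content of 58.3% and held 1 NFY and 1 NR2E3 match. The peak past the gene end, with a GC content of 40.7%, held 1 match each of C/EBP, NFY and NR2E3.

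KRT19 (chromosome 17, 41523617 to 41528308, minus strand) had 1 peak, which was depleted-specific. It lay 2021 bp upstream of the start (41530179 to 41530479), the closest of the set to a start site used in the annotation. AFP peaks lay closer to GENCODE starts (885 and 1245 bp). The KRT19 peak had a score of 5.58 (11 tags, Poisson interval 5.49 to 19.7). This was the lowest among the depleted-specific peaks of the set, and 4.97% of that list lay below it. It held 5 motif matches, 2 of AP-1, 2 of NFY and 1 of C/EBP. It is shown as the peak of the set closest to a start site used in the annotation (plus strand of chr17:41530180-41530479, matches in capitals).
KRT19 depleted-specific peak: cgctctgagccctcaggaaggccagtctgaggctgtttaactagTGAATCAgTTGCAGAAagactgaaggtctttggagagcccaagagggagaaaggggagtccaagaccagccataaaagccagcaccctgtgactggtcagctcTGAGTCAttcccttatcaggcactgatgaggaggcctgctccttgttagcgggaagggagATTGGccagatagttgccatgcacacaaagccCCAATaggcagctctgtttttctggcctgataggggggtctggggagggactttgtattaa

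EGFR lies on the plus strand of chromosome 7 from 55019017 to 55211628. It had 3 depleted-specific peaks and 1 control-specific peak, and on this chromosome 74.2% of 821 specific peaks were depleted-specific and 44.2% of protein-coding genes had a peak. A depleted-specific peak lay 31000 bp upstream of the first start (54987867 to 54988167, score 7.60, 15 tags). The other 3 peaks lay in an intron, between the first start and a later RefSeq start at 55109839 from which the annotation measured them. From the first start, the control-specific peak (55070368 to 55070668, score 4.88, 12 tags) was 51501 bp downstream. The depleted-specific peaks followed at 58916 bp (55077783 to 55078083, score 6.59, 13 tags) and 68198 bp (55087065 to 55087365, score 6.08, 12 tags). The control-specific peak was near the bottom of its list, as 0.868% of scores were lower. Common peaks inside the gene, at 55178762 to 55179062 and at 55188834 to 55189134 (score 5.69 each), were named for the antisense transcript EGFR-AS1, as was a depleted-specific peak at 55177936 to 55178236 (score 6.59). The listed peak nearest to an EGFR RefSeq start was 22624 bp away. From any GENCODE start of EGFR, the nearest was a common peak named for EGFR-AS1 (score 5.69), 3827 bp away.

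TERT (chromosome 5, 1253147 to 1295068, minus strand) was named for no peak. The nearest peak to any of its GENCODE starts was 81.6 kb away, a common peak with a score of 7.73. On chromosome 5, 45.4% of protein-coding genes had a peak.

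The sequences of the 29 peaks were compared with those of all 48976 peaks outside promoters. The GGGCGG motif of Sp1 was in 0 of 29 marker gene peaks, against 5.93% of all. It is frequent at start sites themselves. In RefSeq promoter windows (GRCh38.p14, 250 bases before to 50 after the start), available for 6 of the 10 genes, it was in 7 of 12 windows (58.3%), against 45% of all windows. These windows belonged to 5 genes (CD24, CD44, EGFR, PROM1 and TERT). CCAAT (NFY) was in 16 of 29 peaks (55.2%), against 36.4% of all, with 8 of these 16 at SOX9. AAGTCA (NR2E3) was in 6 peaks (20.7%), against 20.8%. Its matches lay at AFP (1 peak), PROM1 (2 peaks) and SOX9 (3 peaks).

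TTGCNNAA (C/EBP) was in 8 peaks (27.6%), against 18.1% of all, and ATCAAAG (TCF/LEF, the factors that carry β-catenin to DNA) in 4 peaks (13.8%), against 6.18%. At SOX9, the TCF/LEF motif was in 2 control-specific peaks and in the depleted-specific peak 99939 bp downstream of the start. TGANTCA (AP-1) was in 3 peaks (10.3%), against 13.1%, and TGTTTAC (FOXA) in 2 (6.90%), against 6.57%. CAAAGTCCA (HNF4) was in none, against 1.48%. All motifs were read on both strands and matches of different motifs could overlap. The median GC content was 43.0% in common, 41.2% in control-specific and 43.3% in depleted-specific marker gene peaks, against 44.7%, 43.7% and 43.7% of the peaks outside promoters in the whole lists.

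A further 36 liver cancer and progenitor genes were examined in the same way. Of these, 25 were named for a peak, 14 in the common, 10 in the control-specific and 23 in the depleted-specific list. Of protein-coding genes, 51.4% (any list), 26.7%, 21.0% and 36.1% were. A promoter peak was listed for 3 genes in the common list (ICAM1, KRT8 and IGF2BP3), for 1 in the control-specific list (ALDH1A1) and for 7 in the depleted-specific list (LGR5, KRT8, ROBO1, ITGA6, LIN28B, YAP1 and TFRC). These counts stand beside the backgrounds of 14.5%, 3.64% and 11.7% of protein-coding genes. The depleted-specific promoter peaks had scores from 5.58 (YAP1 and TFRC, 11 tags) to 8.62 (ITGA6, 17 tags, 5 bp upstream of the start). That of LGR5, a stem cell receptor of the Wnt pathway, lay 695 bp upstream with a score of 7.10 (14 tags), and that of LIN28B, a fetal RNA-binding protein, 930 bp upstream with the same score. The control-specific promoter peak of ALDH1A1, an aldehyde dehydrogenase used to sort stem-like cells, lay 75 bp upstream with a score of 5.29 (13 tags). Among the genes with the most peaks were CDH1 (16), ITGA6 (14), ROBO1 (8) and SALL4 (7). SALL4, a fetal liver and stem cell transcription factor, had 5 control-specific and 2 depleted-specific peaks, and ROBO1, a guidance receptor, had 0 and 7. ROBO1 also had 1 common peak. The splits were 6 and 7 at CDH1 and 3 and 8 at ITGA6. Over all specific peaks the depleted share was 61.1%.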

How the data were processed

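FAIRE-seq was measured in 1 control and 1 NR2E3-depleted HepG2 library. Per the submitters' processing notes and the study's methods, trimming used Trimmomatic 0.39 and alignment to hg38 used Bowtie2 2.4.5. HOMER supplied the peak calls (findPeaks, with a limit on q) and their annotation (annotatePeaks). The deposited peak score is the authors' scaled tag number, and the deposited distance (bp) runs from the nearest start site. The rule that split peaks into the 3 lists is not given in the sources used here. Common peaks carry scores on the control scale.

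The genes and lists were chosen with earlier results of these data known. Tags were the score divided by the step of which scores under 10 were whole multiples, 0.407 in the common and control-specific lists and 0.507 in the depleted-specific list. Poisson and exact Clopper-Pearson 95% intervals cover counting error only. No test was made. All 10 marker genes are named. Of the other 36 genes, those with a promoter peak in a specific list and the 5 with the most peaks were to be named, and ICAM1 and IGF2BP3, with a promoter peak in the common list alone, were added after their values were seen. Sequences were to be shown for the peak nearest to each start site. Those of PROM1 and EGFR were left out, that of SOX9 was replaced because it lies in a UTR, and for EPCAM the depleted-specific peak is shown in place of the nearest, control-specific one. The depleted-specific EPCAM peak and the SOX9 promoter peak were added after their values were seen. Some genes and sequences that these rules select are not reported here. Motifs were searched in the 300 bases after each listed start in hg38, and the search was tested on simulated data. Gene spans came from GENCODE release 44, and protein-coding genes, outermost starts and promoter windows from RefSeq (GRCh38.p14). The files use hg38, and all peaks lay inside its chromosome lengths. Scripts ran in Python 3.11.15 (scipy 1.17.1 for intervals, pandas 2.3.3 and numpy 2.4.6 for tables, matplotlib 3.10.9 for plots). Alternatives covered thresholds, gene assignment, distance, overlap and merging of peaks, the promoter definition and the motif window.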

Additional observations from a re-analysis of the deposited data

How the results depend on the processing

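Of the summary values, 40 recomputations stayed within 1.5 times the count or within the interval of the share, and 10 moved. Among those that moved were the counts of genes with a promoter peak. They were 0 in each list as reported and rose under some other promoter definitions, given below. With a score of at least 6 in every list, control-specific marker gene peaks fell to 1 and the depleted share rose to 93.3% (68.1% to 99.8%), while that of all specific peaks rose to 72.3%. This limit keeps peaks from 15 tags up in the control and from 12 tags up in the NR2E3-depleted library. The rise thus follows in part from the construction of the limit. Without the limit, the marker gene share was the lower one (60% against 61.1%), and with it the higher one. The share of all specific peaks lay inside the interval of the marker gene share in both cases. Taking all peaks within a gene's span extended by 10 kb gave 8 common peaks, through peaks named for neighbouring transcripts. Of the counts for single genes and lists, 23 of 180 recomputations moved, 12 of them under this setting. A start-site window of 3000 bp gave 1 gene with a depleted-specific promoter peak, KRT19. Windows of 1000 bp around any GENCODE start, whatever name was given, an alternative chosen after seeing the data, gave 2 genes with a common (EPCAM and SOX9), 1 with a control-specific (EPCAM) and 1 with a depleted-specific promoter peak (AFP). Searching 100 bp on each side of the peak centre gave matches in 10 peaks for NFY (34.5%, against 26.1% of all peaks outside promoters), 1 for AP-1 (3.45%, against 9.42%) and 5 for C/EBP (17.2%, against 12.6%), as fewer bases were read. At 11 to 16 tags, a specific peak listed in 1 library alone is not a firm difference. No replicate could be left out, as there were none. No paired analysis was possible because there was a single library in each group.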
